A study of Homo sapiens with 2 samples.

Results

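The THAP family of human zinc finger genes was followed through an RNA-seq comparison of MDA-MB-231 cells, an established triple-negative breast cancer line, in which the antisense RNA THAP7-AS1 had been silenced. The members were the 10 genes THAP1, THAP2, THAP3, THAP4, THAP5, THAP7, THAP8, THAP9, THAP11 and THAP12, taken by symbol from 12918 genes. They were chosen as the protein family of THAP7, the gene beside the silenced RNA, and not by their values. Earlier results of these data were known when that choice was made. Cells of 1 culture had been transfected with a THAP7-AS1 Smart Silencer, a purchased blend of siRNA and antisense oligonucleotide, and cells of the other with the negative control si-NC; RNA was taken at 48 h and 1 library was made from each. The deposited table gave a value per transcript, read here as FPKM (fragment counts divided by transcript length and library total), under the column headings si-v and si-nc. By elimination si-v was assigned to the silencer, an assignment on which every direction below depends, and that library is named si-v here. Neither THAP7-AS1 itself (0 of its 3 annotated transcripts were listed) nor any replicate was at hand to check the silencing, so all differences are between these 2 libraries, and no p-value is given. Fewer cells that express a gene and less RNA per cell cannot be told apart in such bulk samples.

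THAP7-AS1 and THAP7 lie head to head on chromosome 22, on opposite strands. In the RefSeq promoter windows of build GRCh38.p14 their starts lie 196 bases apart, and each gene runs past the start of the other, so that the gene bodies overlap at their starts. The windows are shown because they hold the starts of the silenced RNA and of its family neighbour; they cover the overlap only in part. Each gives the gene's own strand 5′ to 3′ from 250 bases before the start, with the 50 bases from the start on in capitals; THAP7 is chr22:21002069-21002368 on the minus strand and THAP7-AS1 is chr22:21001672-21001971 on the plus strand.
THAP7: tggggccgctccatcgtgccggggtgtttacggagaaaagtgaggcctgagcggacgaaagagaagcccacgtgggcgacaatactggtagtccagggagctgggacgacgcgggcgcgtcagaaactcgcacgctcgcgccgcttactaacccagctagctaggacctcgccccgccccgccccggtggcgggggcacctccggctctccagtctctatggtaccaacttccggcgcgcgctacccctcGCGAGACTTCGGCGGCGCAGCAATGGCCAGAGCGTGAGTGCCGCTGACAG
THAP7-AS1: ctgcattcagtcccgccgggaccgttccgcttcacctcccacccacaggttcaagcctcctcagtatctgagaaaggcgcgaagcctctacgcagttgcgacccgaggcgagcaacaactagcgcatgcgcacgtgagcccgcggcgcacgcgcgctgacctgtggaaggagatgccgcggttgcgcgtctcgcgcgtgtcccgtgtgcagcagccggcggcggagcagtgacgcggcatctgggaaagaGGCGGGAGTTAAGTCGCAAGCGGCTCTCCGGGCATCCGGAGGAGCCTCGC
Both windows had a GC content of 67.0%. RefSeq windows were matched for 8 of the 10 members; THAP1 and THAP12 had none.

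THAP proteins share an amino-terminal zinc-coordinating domain, the THAP domain, which binds DNA and is related to the DNA-binding domain of the Drosophila P element transposase. Several of them recruit the coactivator HCF-1, encoded by HCFC1, and act on genes of growth and the cell cycle.

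On the scale used here THAP12 was the member that differed most: it was 2.47-fold higher in the si-v library, while the other 9 members lay within 1.5-fold. The log2 ratio used throughout is log2((si-v + 1)/(si-NC + 1)) in FPKM, which understates differences of genes near or below 1 FPKM. Of the 10 members 9 reached 1 FPKM in at least 1 library and entered the counts, and THAP9 did not. Without the pseudocount THAP9 had a higher log2 ratio than THAP12, 3.40 against 1.41, but on about 23 and 2 fragments. At 1.5-fold, 1 of the 9 was higher, beside 9.82% of all 11046 genes past that filter, and 0 were lower, beside 8.91%. At 2-fold, 1 was higher, beside 2.37% of all genes, and 0 were lower, beside 2.49%. At 1.5-fold the share of members higher, 11.1%, lay near that of all genes. At both thresholds the count rests on THAP12 alone and is too small to describe the family. The median log2 ratio was 0.10 over the 9 members and 0.00 over all genes, with member values from -0.34 to 1.31.

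**Figure D1:**
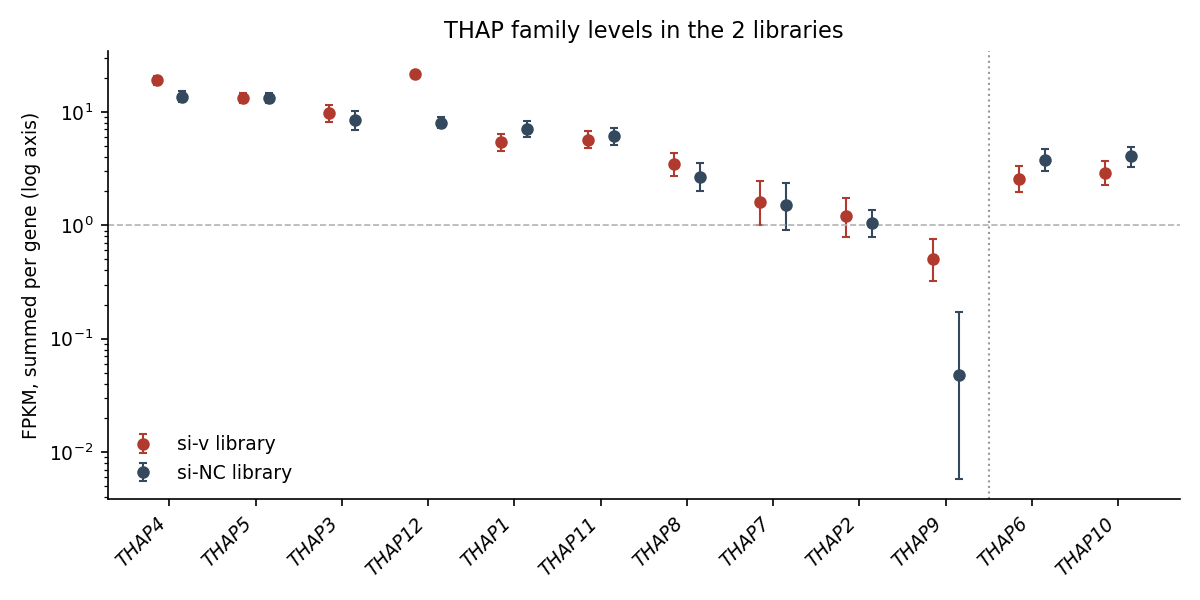
FPKM per gene (log axis) for the 10 members, ordered by their level in the si-NC library, and for THAP6 and THAP10 right of the dotted line; red points are the si-v library, dark points the si-NC library, bars are exact Poisson 95% intervals on estimated fragments (counting error only), and the dashed line is the filter of 1 FPKM. THAP12 stands at 21.4 against 8.05 FPKM, and THAP9 lies below the filter in both libraries.

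The levels per length spanned a wide range. In the si-v library they ran from THAP12 at 21.4 FPKM through THAP4, THAP5, THAP3, THAP11, THAP1, THAP8, THAP7 and THAP2 down to THAP9 at 0.504. In the si-NC library the order was THAP4 at 13.7 FPKM, then THAP5, THAP3, THAP12, THAP1, THAP11, THAP8, THAP7, THAP2 and THAP9 at 0.0479. THAP12 moved most in that order, standing first in the si-v library and at rank 4 in the si-NC library. By the exact Poisson 95% intervals on estimated fragments, which cover counting error only, the neighbours THAP12 and THAP4, THAP11 and THAP1, and THAP7 and THAP2 overlapped in the si-v library. In the si-NC library THAP4 overlapped THAP5, the run from THAP3 through THAP12 and THAP1 to THAP11 overlapped pair by pair, and so did THAP8, THAP7 and THAP2. These intervals weigh all fragments of a gene alike, so they can be too narrow for members with several listed transcripts, such as THAP2. Summed over the 10 members the family stood at 81.2 FPKM in the si-v library and 61.9 in the si-NC library. THAP12 made up 26.3% of that sum in the si-v library and 13.0% in the si-NC library; without it the sums were 59.8 and 53.9 FPKM in the same order.

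THAP12, on chromosome 11, encodes a protein also known as P52rIPK, described as a regulator of the chaperone P58IPK and through it of the double-stranded RNA-activated kinase PKR. It stood at 21.4 FPKM in the si-v library and 8.05 in the si-NC library, a log2 ratio of 1.31. The values rest on about 839 fragments in the si-v library and 292 in the si-NC library, and the 95% Clopper-Pearson interval of the log2 ratio, taken on fragments without the pseudocount and for counting error only, as are those below, was 1.21 to 1.60. Only 109 of the 11046 genes (0.987%) had a higher ratio. The gene has 1 annotated coding transcript and that transcript was the 1 listed, so the value does not depend on how reads were divided among listed coding isoforms. No annotated gene on the opposite strand overlaps it. GENCODE names 9 pseudogenes after THAP12, none of them listed, and reads that such copies share with the gene could have been split by the authors' counting. Under the alternatives tried, the log2 ratio lay between 1.29 and 1.47.

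THAP1, THAP3 and THAP11 are known to bind HCF-1. THAP1, on chromosome 8, whose product acts on cell-cycle genes and is mutated in a hereditary form of dystonia, stood at 5.40 FPKM in the si-v library and 7.08 in the si-NC library (log2 ratio -0.34). Its 136 and 164 fragments gave an interval of -0.72 to -0.05. On summed FPKM this was the lowest ratio of the 10 members, but THAP2 was lower on fragments, THAP2 and THAP3 for the most abundant transcript, and THAP7 and THAP11 after correction for GC content and length. The THAP1 value itself was negative under each of the 10 settings used.

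THAP3, on chromosome 1, stood at 9.73 FPKM in the si-v library and 8.48 in the si-NC library (log2 ratio 0.18, interval -0.04 to 0.70). THAP11, on chromosome 16, known in the mouse as Ronin, a factor of embryonic stem cell self-renewal, stood at 5.71 FPKM in the si-v library and 6.07 in the si-NC library (log2 ratio -0.08, interval -0.43 to 0.26). For both genes the counting interval held 0.

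THAP7, on chromosome 22, encodes a repressor that binds histone tails and recruits the corepressor NCoR and the deacetylase HDAC3. It stood at 1.60 FPKM in the si-v library and 1.5 in the si-NC library, on about 22 and 19 fragments. The interval of its log2 ratio, for counting error only, ran from -0.86 to 1.06 and so held both falls and rises. With 1 library per group it does not give the size of change that could be detected. Nearly all of it was carried by the transcript THAP7-202, at 1.60 FPKM in the si-v library and 1.37 in the si-NC library; THAP7-201 was at 0.00583 and 0.130 FPKM in the same order. Both transcripts hold the same 927 coding bases. Whether the counting used strand is not stated in the labels. Reads of THAP7-AS1 over the shared stretch could have been counted to THAP7, and their part was not tested.

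THAP4, on chromosome 2, which joins a THAP domain to a heme-binding nitrobindin domain, stood at 19.0 FPKM in the si-v library and 13.7 in the si-NC library (log2 ratio 0.45). It rested on 520 and 355 fragments, with an interval of 0.24 to 0.63, and was the second highest in ratio among the 9 members past the filter. The value was 0.24 with the trend of GC content and length removed, below that of THAP2 at 0.27.

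THAP5, on chromosome 7, a substrate of the mitochondrial protease Omi/HtrA2, was level at 13.2 FPKM in the si-v library and 13.3 in the si-NC library. Its log2 ratio was -0.01, with an interval of -0.23 to 0.19 on 392 and 366 fragments. THAP8, on chromosome 19, stood at 3.47 FPKM in the si-v library and 2.69 in the si-NC library (log2 ratio 0.28, interval -0.17 to 0.89).

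THAP9, on chromosome 4, encodes a protein related to the P element transposase over its whole length, which has been shown to mobilise that element. It stood at 0.504 FPKM in the si-v library and 0.0479 in the si-NC library, on about 23 and 2 fragments. The log2 ratio was 0.52 on the scale with the pseudocount of 1, and 3.40 without it, with an interval of 1.39 to 6.54. The counting interval lay above 0, but a value of about 2 fragments sets the ratio, and the gene overlaps the coding genes LIN54 and SEC31A and the antisense RNA THAP9-AS1 on the opposite strand. LIN54 stood at 9.65 and SEC31A at 38.0 FPKM in the si-v library, against 13.3 and 56.9 in the si-NC library, far above THAP9 in both and lower in the si-v library. Their part in the THAP9 reads was not tested.

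THAP2, on chromosome 12, stood at 1.20 FPKM in the si-v library and 1.04 in the si-NC library (log2 ratio 0.10). Counted as fragments it lay the other way, with about 27 in the si-v library and 55 in the si-NC library. The log2 ratio of those fragments, scaled to the library totals, was -1.13, with an interval of -1.86 to -0.45. The sign of the THAP2 difference therefore changed between summed FPKM and fragments.

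**Figure D2:**
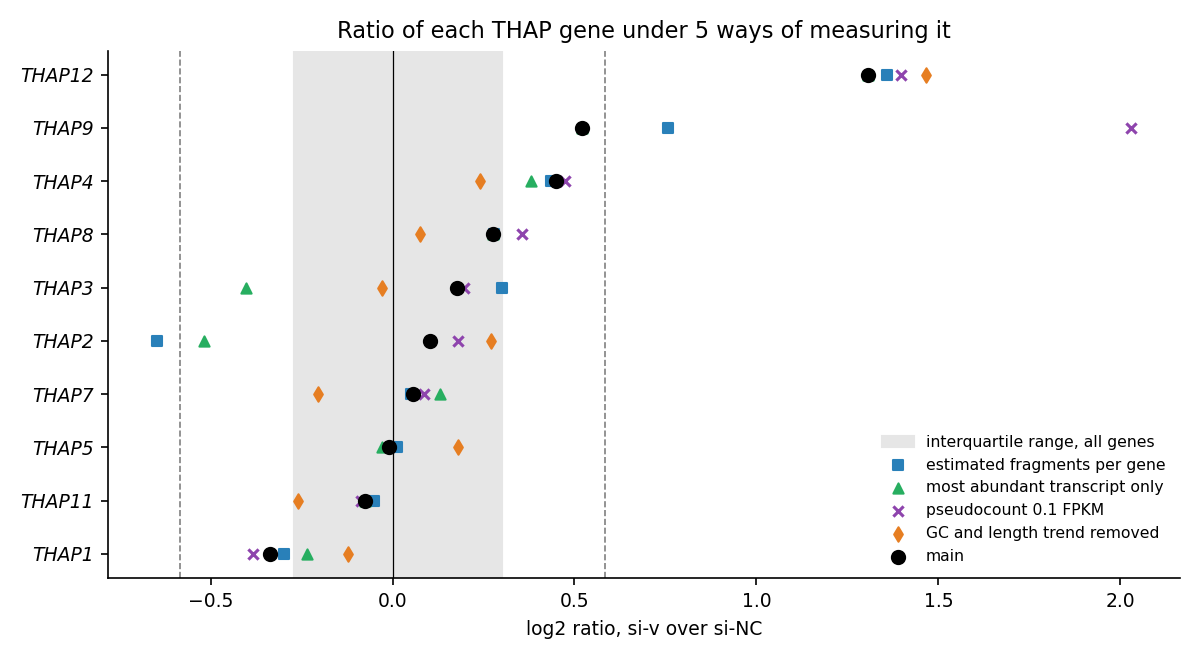
Log2 ratio of the si-v over the si-NC library for each member, measured in 5 ways: black circles are summed FPKM with a pseudocount of 1, blue squares estimated fragments, green triangles the most abundant transcript, purple crosses a pseudocount of 0.1 FPKM and orange diamonds the ratio corrected for GC content and length; dashed lines mark 1.5-fold and the grey band the interquartile range of all genes. THAP12 lies beyond 1.5-fold in all 5, and THAP2, THAP3, THAP5 and THAP7 have points on both sides of 0. THAP9, below the filter, has no point for the correction for GC content and length.

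The listed transcripts of a gene did not all lie in the same direction. THAP2-201, a transcript of 5719 bases, stood at 0.292 FPKM in the si-v library and 0.850 in the si-NC library, on 20 and 53 fragments. THAP2-202, of 672 bases, stood at 0.905 FPKM in the si-v library and 0.194 in the si-NC library, on only 7 fragments and 1 fragment. Per length, a few fragments of the short transcript outweighed many of the long form, and its share of the summed FPKM was 75.6% in the si-v library and 18.6% in the si-NC library. THAP2-202 has 156 annotated coding bases, against 684 in THAP2-201.

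THAP3 was divided differently between its transcripts in the 2 libraries as well. THAP3-201 stood at 4.25 FPKM in the si-v library and 1.62 in the si-NC library (69 and 24 fragments, log2 ratio 1.0, interval without the pseudocount 0.72 to 2.14). THAP3-202 stood at 4.63 FPKM in the si-v library and 6.45 in the si-NC library (58 and 74 fragments, log2 ratio -0.40, interval -0.99 to 0.05). The transcripts encode nearly the same protein length, with 717 coding bases in THAP3-201 and 714 in THAP3-202. All 1046 bases of THAP3-202 lie within the other listed transcripts and THAP3-201 has 317 bases of its own, so the division between them rests on few informative reads. The intervals do not cover that division.

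For the rest, THAP5 kept a like division, with THAP5-203 at 65.8% of the gene in the si-v library and 66.9% in the si-NC library. THAP1-201, the full-length coding form with 639 coding bases, made up 82.3% of THAP1 in the si-v library and 76.5% in the si-NC library. THAP4-206 stood at 0.928 FPKM in the si-v library, on about 11 fragments, and was listed at 0 in the si-NC library; all of its bases lie within THAP4-204, which carried 95.1% of the gene in the si-v library. THAP8, THAP9, THAP11 and THAP12 had 1 listed transcript each.

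**Figure D3:**
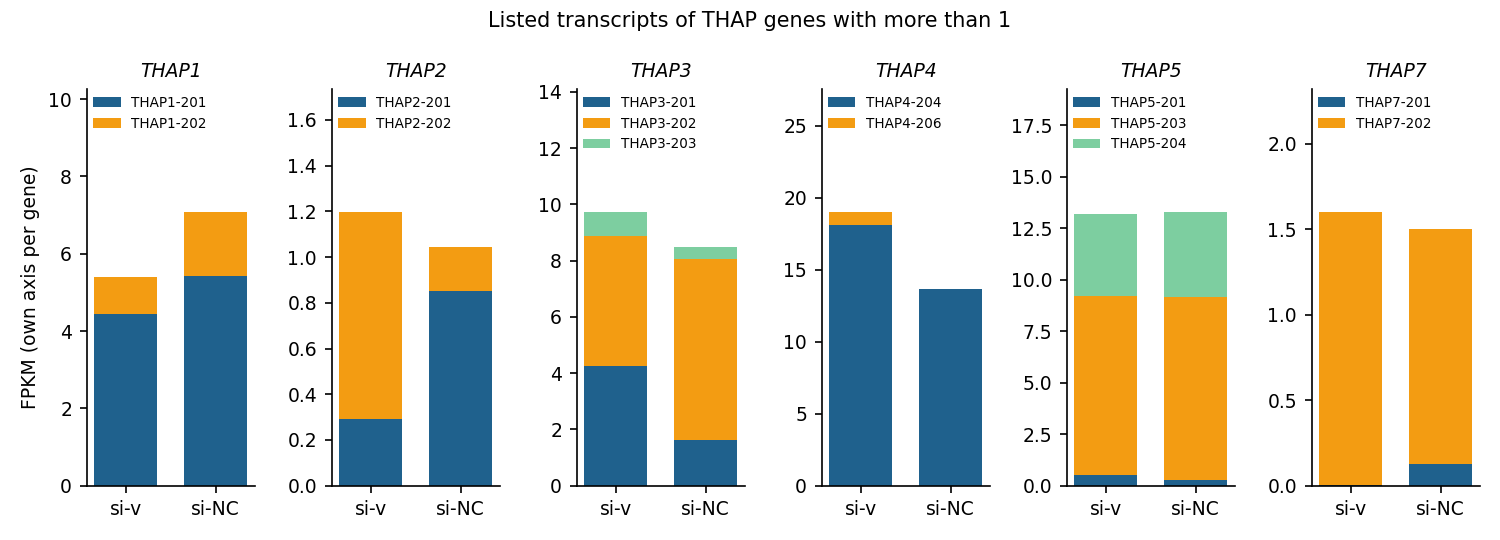
FPKM of each listed transcript, stacked per gene from 0, in the si-v library (left bar) and the si-NC library (right bar), for the members with more than 1 listed transcript; each gene has its own axis. THAP2 is mostly THAP2-202 in the si-v library and mostly THAP2-201 in the si-NC library, while the THAP5 bars are alike.

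THAP6 and THAP10, the human family genes that are not among the 10 members, were both lower in the si-v library and both below 1.5-fold. THAP6 stood at 2.55 FPKM in the si-v library and 3.80 in the si-NC library (log2 ratio -0.44, 58 and 82 fragments, interval -1.13 to -0.11). THAP10 stood at 2.91 FPKM in the si-v library and 4.05 in the si-NC library (log2 ratio -0.37, 68 and 98 fragments, interval -1.11 to -0.18). With these included, 11 of the 12 family genes passed the filter, 6 above and 5 below 0, and the median log2 ratio was 0.06.

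As another group of DNA-binding zinc finger genes, the 394 genes with ZNF symbols that passed the filter had a median log2 ratio of 0.09, with 11.4% of them 1.5-fold or more higher and 6.09% as much lower. The members' median of 0.10 lay close to it, and no difference between the groups was tested. The median level of the members that passed was 5.71 FPKM in the si-v library and 7.08 in the si-NC library, against 3.48 and 3.32 for the ZNF genes and 9.29 and 9.44 for all genes.

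Genes of proteins that work with the family were all listed, 11 of 11, and 1 was higher and 1 lower by 1.5-fold, beside the 9.82% and 8.91% of all genes. Their median log2 ratio was 0.03. HTRA2, the protease that cleaves THAP5, stood at 6.83 FPKM in the si-v library and 1.31 in the si-NC library (log2 ratio 1.76, interval without the pseudocount 1.81 to 2.92, 187 and 34 fragments). EIF2AK2, which encodes PKR, stood at 20.3 FPKM in the si-v library and 34.0 in the si-NC library (log2 ratio -0.72). On its fragments, 1623 and 2036, the EIF2AK2 log2 ratio was -0.44, under 1.5-fold, and the transcript EIF2AK2-204 was listed at 0 in the si-v library and at 5.28 FPKM in the si-NC library. DNAJC3, the gene of P58IPK, was near level at 11.8 FPKM in the si-v library and 12.6 in the si-NC library.

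Genes of the HCF-1 side of the list lay in both directions, none at 1.5-fold. HCFC1 stood at 27.4 FPKM in the si-v library and 21.3 in the si-NC library (log2 ratio 0.35, interval 0.27 to 0.44), and OGT, whose enzyme glycosylates and cleaves HCF-1, at 14.4 and 11.5 FPKM in the same order (0.31, interval 0.13 to 0.46). HCFC2, the related factor gene, lay the other way at 5.36 FPKM in the si-v library and 7.58 in the si-NC library (-0.43, interval -0.70 to -0.30). ZNF143, a zinc finger factor found at sites shared with THAP11, was level at 13.5 FPKM in both libraries. The HCFC1 difference lay in HCFC1-202, at 11.7 FPKM in the si-v library and 5.43 in the si-NC library. HCFC1-201 was level at 15.7 and 15.6 FPKM in the same order. How reads were divided between these transcripts was not tested, and the HCFC1 interval does not cover it.

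Of the corepressor genes linked to THAP7, HDAC3 stood at 28.0 FPKM in the si-v library and 20.8 in the si-NC library (log2 ratio 0.41), and NCOR1 at 32.7 and 46.1 FPKM in the same order (-0.48). SET, a histone chaperone that blocks acetylation, was level in its sum at 418 FPKM in the si-v library and 411 in the si-NC library. Its transcripts were not: SET-201 stood at 300 FPKM in the si-v library and 103 in the si-NC library, and SET-204 at 8.75 and 189. How reads were divided between these transcripts was not tested. PAWR, which encodes the pro-apoptotic THAP1 partner Par-4, stood at 30.2 FPKM in the si-v library and 26.2 in the si-NC library (0.20). On its fragments, 2594 and 2278, the PAWR log2 ratio was 0.07, with an interval of -0.01 to 0.15 that held 0.

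Genes reported elsewhere as targets of THAP1 or THAP11 were taken as a short list of 5, of which 4 passed the filter; 0 were 1.5-fold or more higher and 1 was lower, beside the shares of all genes given above. RRM1, the large subunit of ribonucleotide reductase, stood at 116 FPKM in the si-v library and 111 in the si-NC library (log2 ratio 0.07). TOR1A, the dystonia gene of torsin A, stood at 32.4 FPKM in the si-v library and 27.7 in the si-NC library (0.22), and the proteasome subunit gene PSMB5 at 24.8 and 19.7 FPKM in the same order (0.32). MMACHC, a cobalamin-processing gene under THAP11 and HCF-1, stood at 2.78 FPKM in the si-v library and 4.80 in the si-NC library (-0.62). Most of the MMACHC difference lay in MMACHC-203, listed at 0 in the si-v library and at 1.68 FPKM in the si-NC library; MMACHC-201 stood at 2.78 and 3.12 FPKM. On fragments, 175 in the si-v library and 209 in the si-NC library, the MMACHC log2 ratio was -0.37 (interval -0.67 to -0.08), under 1.5-fold. SHLD1, a shieldin subunit gene, was below the filter at 0.526 and 0.657 FPKM.

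**Figure D4:**
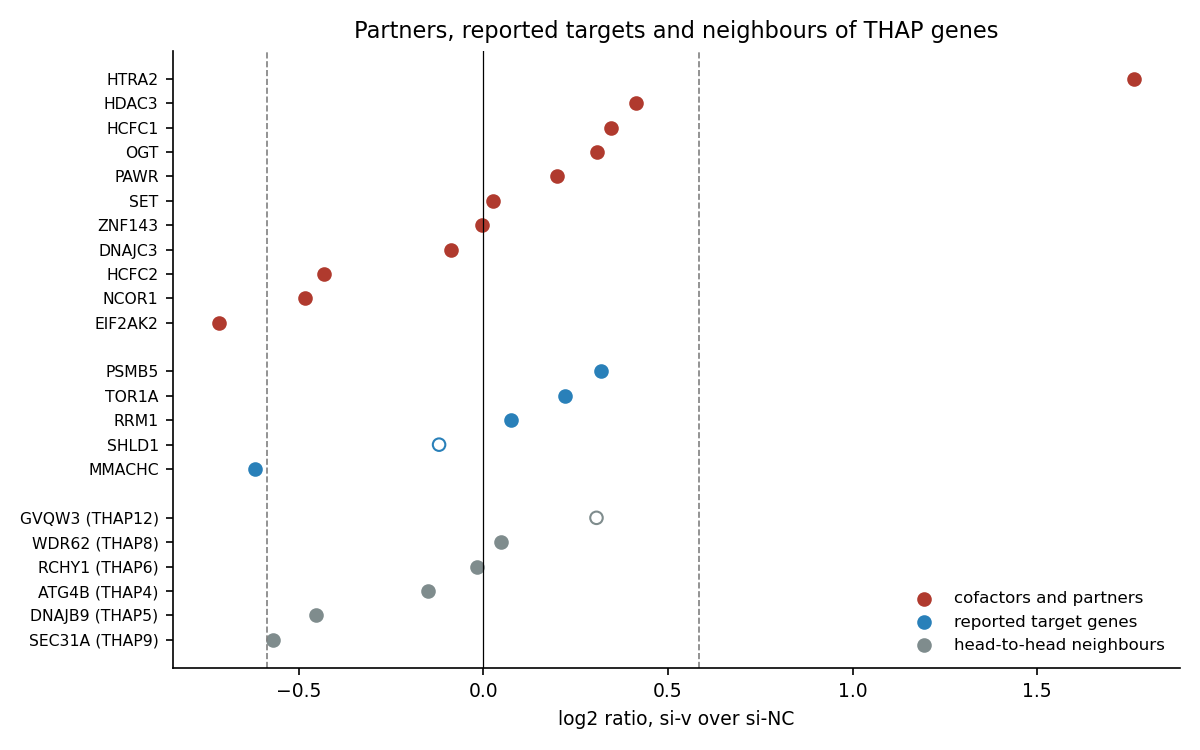
Log2 ratio of the si-v over the si-NC library for the cofactor and partner genes (red), reported target genes (blue) and head-to-head neighbours of THAP genes (grey, the THAP gene in brackets); open circles did not reach 1 FPKM in either library and dashed lines mark 1.5-fold. HTRA2 at 1.76 lies apart from the other partners, which range from -0.72 to 0.41.

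Many THAP genes share their start region with a coding gene on the other strand. Within 1000 bases GENCODE places ATG4B beside THAP4, DNAJB9 beside THAP5, WDR62 beside THAP8, SEC31A beside THAP9, GVQW3 beside THAP12 and RCHY1 beside THAP6. GVQW3, the neighbour of THAP12, was below the filter at 0.742 FPKM in the si-v library and 0.409 in the si-NC library, on 22 and 11 fragments (log2 ratio 0.31, interval without the pseudocount -0.22 to 2.08). DNAJB9, an endoplasmic reticulum co-chaperone gene, stood at 4.46 FPKM in the si-v library and 6.47 in the si-NC library (-0.45), while THAP5 itself was level. ATG4B, of the autophagy pathway, stood at 2.35 FPKM in the si-v library and 2.72 in the si-NC library (-0.15), and THAP4 at 0.45. SEC31A, a coat protein gene of endoplasmic reticulum export, had the lowest ratio of the 6 on summed FPKM at -0.57. On estimated fragments without the pseudocount SEC31A was at -0.50 and DNAJB9 was lower at -0.54. The 21 listed transcripts of SEC31A lay in both directions. WDR62, a centrosome gene, was at 0.05 and the ubiquitin ligase gene RCHY1 at -0.02. Of the 5 neighbours past the filter none reached 1.5-fold, beside 9.82% of all genes higher and 8.91% lower. A list of 5 is too short to compare with these shares.

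An opposite-strand gene overlaps 8 of the 10 members in GENCODE, THAP1 and THAP12 being the exceptions. Among the other overlapping coding genes ZFC3H1, over THAP2, stood at 8.61 FPKM in the si-v library and 12.2 in the si-NC library. DNAJC11, over THAP3, stood at 27.9 and 22.8 FPKM in the same order, and CENPT, over THAP11, at 5.66 and 5.83. On the same strand PNPLA8 overlaps THAP5, and stood at 7.43 FPKM in the si-v library and 10.9 in the si-NC library. AC073612.1, which was not listed, overlaps THAP2 on the same strand. These overlapping genes were looked up after the values were seen, and their share in the THAP counts was not tested. The strand setting is not known, and strand would not separate the same-strand pairs.

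The libraries held about 8320000 fragments on matched transcripts in the si-v library and 7830000 in the si-NC library, estimated from the smallest steps among low values. All 6 markers of the line were present in both, from PLAUR at 33.5 FPKM to FOSL1 at 463 in the si-v library and from PLAUR at 39.8 to FOSL1 at 739 in the si-NC library. VIM (log2 ratio 0.12) and MSN (0.19) were higher in the si-v library, and PLAUR (-0.24), AXL (-0.34), CD44 (-0.41) and FOSL1 (-0.67) were lower, FOSL1 by more than 1.5-fold. Of the genes expected to be low or absent in the line, the oestrogen receptor gene ESR1 was listed at 0 in both. PGR was not among the listed genes. CDH1 stood at 0.122 FPKM in the si-v library and 0.0845 in the si-NC library, and FOXA1 at 0.359 and 0.228. The others passed the filter, GATA3 at 2.18 and 2.65 FPKM and the epithelial marker EPCAM at 12.8 and 11.3, in the same order. Of markers of other cell types, ALB of hepatocytes was listed at 17.7 and 17.0 FPKM and COL1A1 of fibroblasts at 1.14 and 0.482, and PTPRC and PECAM1 were not among the listed genes.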

How the data were processed

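The deposited FPKM values, 1 per transcript for 39605 transcripts in 2 libraries, were made by the authors from reads on hg19 with cutadapt, HISAT2 2.0.5 and StringTie, per the submitters' processing notes. The unit is read from the values, since the header names none. Annotation release, strand setting and filters: not given in the sources used here. Transcript IDs were matched without version to GENCODE release 29, on another build and used for symbols, lengths, GC content, coding bases and which genes neighbour each other; 99.5% matched. Summing FPKM per symbol gave 12918 genes; 11046 passed a minimum of 1 FPKM in either library. Ratios used a pseudocount of 1 FPKM.

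Low values times length in genes with 1 listed transcript peaked at 84.1 in the si-v library and 91.1 in the si-NC library, taken as the worth of 1 fragment; fragment numbers are approximate. Exact Clopper-Pearson intervals of ratios and exact Poisson intervals of levels, at 95%, rest on these fragments without pseudocount and cover counting error only. For a gene with several transcripts the ratio interval and the level interval weigh all fragments equally, whatever the length. The level interval can then be too narrow where few fragments of a short transcript carry much of the summed FPKM. With 1 library per group there was no test. The steps were tested on simulated data, where interval coverage was checked only for genes with 1 listed transcript and with known fragment numbers. Intervals of genes with several transcripts were not checked.

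The members and gene lists were chosen with earlier results of these data known. The named genes were all members and their listed transcripts, THAP6 and THAP10, 11 cofactor genes, 5 reported targets and coding genes starting head to head within 1000 bases; the overlapping genes were added later. Analyses used Python 3.11.15, pandas 2.3.3 and SciPy 1.17.1.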

Additional observations from a re-analysis of the deposited data

How the results depend on the processing

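The count of 1 THAP gene at 1.5-fold or more higher was the same under all 10 alternatives, and the median log2 ratio of the members lay between 0.05 and 0.18 under the 9 that give one. The filter kept THAP9 out of that count. Where no filter was set, the pseudocount of 1 held THAP9 at a log2 ratio of 0.52, under 1.5-fold. No alternative relaxed the filter and the pseudocount together. Counted as fragments, 1 member (THAP2) was 1.5-fold or more lower in place of 0. Over all genes, 262 were higher and 275 lower at 2-fold, and 1548 were lower with only the most abundant transcript per gene; the other counts stayed within 1.5 times of 1085 and 984. Among members, the log2 ratio of THAP2 was -0.65 on fragments with a pseudocount (-1.13 without) and -0.52 for its most abundant transcript, that of THAP3 was -0.40 for its most abundant transcript and -0.03 with the trend of GC content and length removed, and that of THAP7 was -0.20 with that trend removed, each against a positive value as reported. THAP5 turned to 0.18 with that trend removed. That of THAP9 was 2.03 with a pseudocount of 0.1 FPKM. The cause of these shifts was not tested. No paired analysis was possible because each group has 1 library. Depth limits THAP7, THAP2 and THAP9 most, at 2 to 55 fragments a library.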
